A study of Mus musculus with 12 samples.

Results

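Retinoic acid was added to mouse CD8 T cells, the killer lymphocytes of the immune system, in the presence of another signal, and their RNA was sequenced. The comparison is between cultures given transforming growth factor beta (TGFβ) together with retinoic acid (RA) and cultures given TGFβ without RA. The members were all genes in the 3 libraries whose titles list IL-2, IL-15, TGFβ and RA and in the 3 whose titles list IL-2, IL-15 and TGFβ, 6 of the 12 libraries of the series. The cells came from the spleen of C57BL/6 mice, all cultures held the growth cytokines IL-2 and IL-15, and RNA was taken on day 7. The groups are called TGFβ + RA, TGFβ, RA (with IL-2 and IL-15 but no TGFβ) and IL-2 + IL-15, with 3 libraries each. The labels call the libraries biological replicates and do not tie them to animals, so the p-values speak only of how much these libraries vary, which may be technical. The labels used here give neither doses nor the way the cells were activated or sorted, and the title names in vitro generation of tissue-resident memory CD8 T cells as the subject.

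RA is the active metabolite of vitamin A. It enters the nucleus and binds RAR and RXR receptors, which sit on DNA as pairs and turn target genes on when the ligand is bound. In the gut, dendritic cells make RA, and T cells primed there acquire the receptors that guide them to the intestine. TGFβ binds paired surface kinases that phosphorylate SMAD proteins, and it is the classical inducer of the integrin αE (CD103), by which T cells hold on to epithelium.

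The 6 libraries held 18300206 to 31120721 counts in TGFβ + RA and 23710238 to 25633171 in TGFβ. Of 46078 genes listed, 14009 passed a filter on low counts and were tested in 1 model over all 12 libraries. The first principal component of the 6 libraries held 83.0% of the variance and put the TGFβ + RA libraries at 48.5 to 50.8 and the TGFβ libraries at -50.2 to -48.8. On the second, which held 5.35%, TGFβ + RA replicate 1 stood apart at 23.3. The defining transcripts of CD8 T cells, Cd8a, Cd8b1, Cd3e, Cd3d and Trac, had 10036 to 100235 counts in every one of the 6 libraries, and Cd4 had 7 to 20. In TGFβ + RA replicate 3, transcripts typical of neutrophils and macrophages were present at low level. It held 323 counts of Lyz2, 177 of S100a9, 97 of S100a8 and 11 of C1qb, against at most 23, 1, 0 and 0 in the other 5 libraries. None of the 11 neutrophil markers passed the filter, and their summed level was 0.0964 to 23.8 in TGFβ + RA and 0.234 to 1.10 in TGFβ, in CPM (counts set to an equal library total). Their part in the results was not tested, and the main counts are therefore also given without that library.

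RA changed a large share of the transcriptome of TGFβ cultures. At a Benjamini-Hochberg adjusted p under 0.05 in edgeR's quasi-likelihood test, 6029 of 14009 genes were called (43.0%), of which 2843 were higher (20.3%) and 3186 lower (22.7%) in TGFβ + RA. Among genes that also changed at least 2-fold, 1596 in all (11.4%), 406 were higher (2.90%) and 1190 lower (8.49%). In 8112 genes (57.9%) the 3 values of one group did not overlap the 3 of the other, with TGFβ + RA higher in 4095 (29.2%) and lower in 4017 (28.7%). Without TGFβ + RA replicate 3, 5098 genes were called and 1601 of these changed at least 2-fold. When the test asked for a change beyond 1.5-fold, 1546 genes were called, 369 higher and 1177 lower. The median log2 fold change over all tested genes was 0.01, and the counts of each gene list below are read against the 20.3% higher and 22.7% lower of all genes. In bulk RNA, fewer cells of a type and less RNA per cell cannot be told apart. Levels are CPM scaled by the trimmed mean of M-values (TMM), which are comparable between libraries for 1 gene but not between genes of different length.

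Several known RA targets and retinoid enzymes were higher, and 3 of the 4 retinoid receptor genes tested were lower. Of 26 genes listed for retinoid receptors, metabolism and targets, 15 were tested, 8 were called higher and 3 lower (53.3% and 20%), and the median log2 fold change was 0.14. Tgm2, which encodes transglutaminase 2, a protein crosslinker long used as a readout of RA, had 91.9, 142 and 129 CPM in TGFβ + RA libraries and 0.996, 1.93 and 3.08 CPM in TGFβ libraries. That is a log2 fold change of 5.93 ± 0.37 (SE, edgeR adjusted p = 2.52e-08). Dhrs3, a reductase that turns retinal back into retinol, had 7.89, 10.3 and 10.5 CPM in TGFβ + RA, against 0.421, 0.740 and 0.641 CPM in TGFβ. The transcription repressor gene Hic1 was also higher (log2 fold change 3.48 ± 0.16), as was Nrip1, a corepressor that binds nuclear receptors (1.80 ± 0.09). The 3 members that fell were receptors: Rara (log2 fold change -1.29 ± 0.07), Rarg (-2.10 ± 0.06) and Rxra (-2.52 ± 0.26). Rarg stood at 11.2, 10.6 and 9.97 CPM in TGFβ + RA libraries and at 45.7, 43.9 and 46.6 CPM in TGFβ libraries, with no overlap. The receptor gene Rxrb was called higher by a small amount (0.14). The RA-degrading enzyme gene Cyp26b1 was called higher at a low level, with 0.920 to 1.16 CPM in TGFβ + RA and 0.0766 to 0.206 CPM in TGFβ.

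The 10 genes with the highest fold changes and the 10 with the lowest, drawn from called genes averaging 5 CPM or more, show how far the groups stood apart. P2rx7 (chr5:122643911-122691432 on GRCm38), which encodes an ion channel opened by extracellular ATP, had 258, 322 and 318 CPM in TGFβ + RA libraries and 1.19, 1.64 and 2.44 CPM in TGFβ libraries. Its log2 fold change of 7.41 ± 0.17 was the highest of all 14009 genes tested (edgeR adjusted p = 3.83e-12). P2rx4, the neighbouring ATP-gated channel gene 16111 bp away, was higher by 2.32 ± 0.13. Ccr9, the receptor for the small-intestinal chemokine CCL25, had 1177, 1054 and 1105 CPM in TGFβ + RA, against 13.9, 18.0 and 16.5 CPM in TGFβ (log2 fold change 6.11 ± 0.17). Lztfl1, which lies within the Ccr9 span without shared exons, was higher by 3.20 ± 0.12. Ccl5, a chemokine stored in memory CD8 T cells, was present at 1547, 962 and 920.0 CPM in TGFβ + RA, while TGFβ libraries had 46.9, 35.9 and 40.1 CPM. Its neighbour Heatr9, 3602 bp away, rose beside it, to 54.0, 47.6 and 47.1 CPM in TGFβ + RA against 2.53, 2.92 and 1.80 CPM in TGFβ. Sorcs2, a sorting receptor gene, Grtp1 and Dkk3, whose protein is a secreted relative of the Wnt inhibitors, rose by log2 fold changes of 5.72 ± 0.25, 5.01 ± 0.23 and 3.99 ± 0.15. Art2a-ps, annotated as a polymorphic pseudogene and related to the ectoenzyme gene Art2b, had 11.8, 18.8 and 13.9 CPM in TGFβ + RA and 0.191, 0.288 and 0.160 CPM in TGFβ (6.11 ± 0.26). Its reads are uncertain because the related genes may share them.

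At the low end, Ace (chr11:105967945-105989964), the angiotensin-converting enzyme gene, had 0.159, 0.188 and 0.147 CPM in TGFβ + RA libraries and 116, 91.7 and 98.1 CPM in TGFβ libraries. Its log2 fold change was -9.22 ± 0.17 (edgeR adjusted p = 5.92e-13), and Cyb561, the tested gene next to it at 14608 bp, was lower by -3.93 ± 0.17. Gpr15 (chr16:58717433-58719070), a receptor that guides T cells to the large intestine, was at 0.741, 0.816 and 0.662 CPM in TGFβ + RA, against 154, 111 and 101 CPM in TGFβ. Fut7, the fucosyltransferase that completes selectin ligands for entry into skin and inflamed tissue, had 0.318, 0.314 and 0.368 CPM in TGFβ + RA and 45.9, 41.7 and 43.7 CPM in TGFβ. Endou, an RNA-cutting enzyme gene, was lower by a log2 fold change of -8.64 ± 0.36, and Stac2, whose protein binds calcium channels, by -7.89 ± 0.15. The signalling regulator gene Rgs8 (-6.95 ± 0.32), the scaffold gene Mpp2 (-6.34 ± 0.13), Fam129b (-6.07 ± 0.23), the Notch-related ligand gene Dlk1 (-5.80 ± 0.30) and the peptide transporter gene Slc15a1 (-5.78 ± 0.21) complete the set. In each of these 20 genes all 3 values of one group lay outside the range of the other, which the rule for choosing them required. Il24, a cytokine gene of lower abundance, had 0 counts in the 3 TGFβ + RA libraries and 268 counts in the 3 TGFβ libraries. Its level was 92.4-fold lower in TGFβ + RA when a total of 0 is read as 3 counts over the group, and the exact 95% interval of the ratio began at 74.6-fold.

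**Figure D1:**
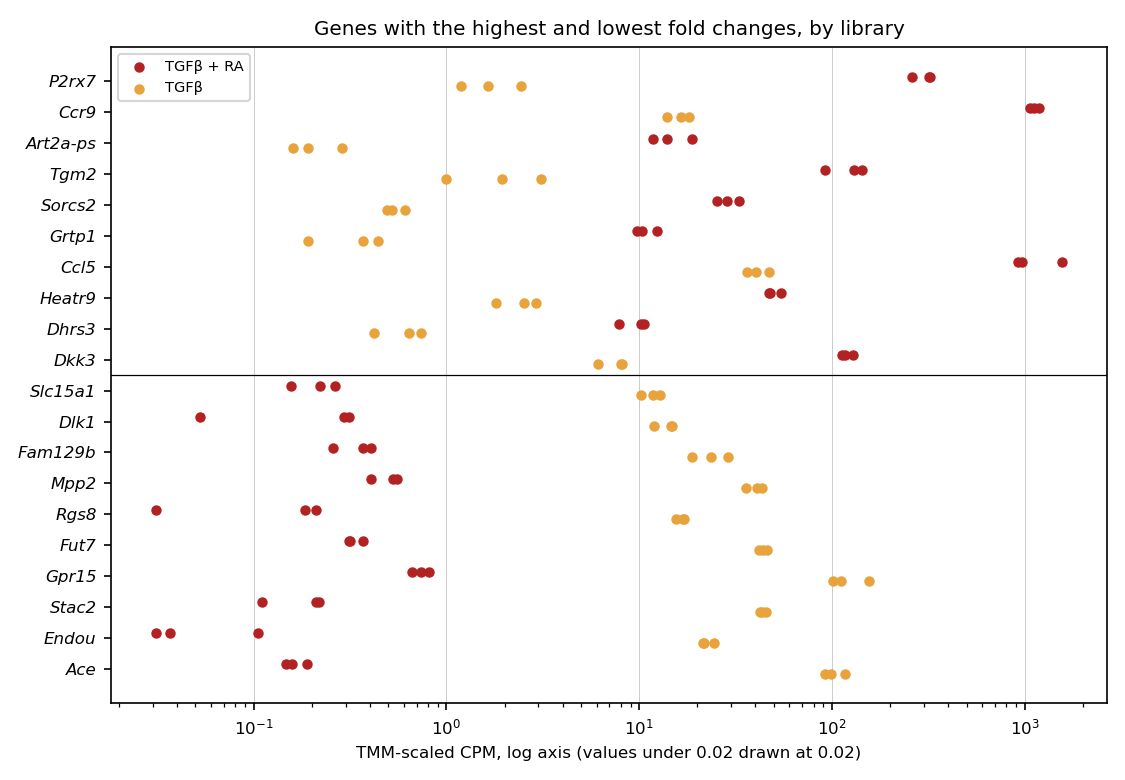
Levels of the 10 called genes with the highest and the 10 with the lowest fold changes in each library. Each point is 1 library on a log axis of TMM-scaled CPM, with TGFβ + RA in red above TGFβ in orange within each row; in all 20 rows the colours do not overlap, from P2rx7 (258 to 322 against 1.19 to 2.44 CPM) to Ace (0.147 to 0.188 against 91.7 to 116 CPM).

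Homing receptors moved in both directions. Of 6 tested gut homing genes, 3 were called higher and 2 lower. Besides Ccr9 and Gpr15, Itga4, the α4 integrin chain, had 346, 243 and 273 CPM in TGFβ + RA and 111, 122 and 111 CPM in TGFβ (log2 fold change 1.32 ± 0.13). Its partner Itgb7, the β7 chain that pairs with α4 and with αE, was lower, at 1130, 1186 and 1157 CPM in TGFβ + RA against 1530, 1390 and 1437 CPM in TGFβ (-0.33 ± 0.06, edgeR adjusted p = 0.000307). Skin homing and selectin ligand genes were mostly lower, with 7 of 11 tested called lower, 1 higher and a median log2 fold change of -0.37. Ccr4, a skin homing chemokine receptor, had 2.65, 2.35 and 2.72 CPM in TGFβ + RA and 16.9, 15.8 and 19.1 CPM in TGFβ. Gcnt1, a glycosyltransferase of selectin ligand synthesis, was the member called higher (0.71 ± 0.13). Among 9 tested receptors for inflammatory chemokines, 4 rose and 4 fell. Cx3cr1, which marks circulating effector cells, was lower (log2 fold change -3.01). Cxcr4 fell by 2.65 ± 0.11 on the log2 scale, and Cxcr6, linked to residence in liver and other tissues, was higher by 0.47 ± 0.11.

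Genes listed for T cell circulation and egress, which include genes of memory cells, were lower as a group. Of 27 tested, 18 were called lower (66.7%) and 1 higher, with a median log2 fold change of -0.64. S1pr1, the receptor that draws T cells out of tissue towards sphingosine-1-phosphate in blood and lymph, had 26.4, 25.1 and 32.5 CPM in TGFβ + RA libraries and 328, 298 and 303 CPM in TGFβ libraries (log2 fold change -3.47 ± 0.12, edgeR adjusted p = 1.64e-10). Klf2, the transcription factor that drives S1pr1, had 11.9, 18.7 and 22.7 CPM in TGFβ + RA, against 198, 172 and 183 CPM in TGFβ. The lymph node chemokine receptor gene Ccr7 was lower by a smaller amount (-0.51 ± 0.14), as was Il7r, the interleukin-7 receptor chain of memory cells (-0.99 ± 0.08). Id3, a transcription regulator of memory cells, was the member called higher (0.56 ± 0.11), and 2 members were called higher without TGFβ replicate 2 or RA replicate 3. With a change beyond 1.5-fold required, 12 members were called lower and 0 higher by edgeR's glmTreat.

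Genes of tissue residency were more often higher than lower, with 16 of 36 tested called higher (44.4%), 7 lower (19.4%) and a median log2 fold change of 0.12. With a change beyond 1.5-fold required, 8 were called higher and 2 lower. Itga1 (CD49a), the integrin chain that binds collagen, had 59.3, 74.1 and 65.5 CPM in TGFβ + RA and 14.5, 10.4 and 11.5 CPM in TGFβ (2.45 ± 0.26). Cd69, whose protein pulls S1PR1 off the cell surface, stood at 50.4, 53.6 and 52.9 CPM in TGFβ + RA, against 25.4, 21.8 and 20.8 CPM in TGFβ (1.21 ± 0.08). Itgae (CD103) had 3106, 3297 and 3072 CPM in TGFβ + RA and 2021, 2062 and 2001 CPM in TGFβ, which do not overlap. Its call in the fit of all 12 was weak (0.64 ± 0.22, edgeR adjusted p = 0.0302): without any 1 of the 6 libraries, or by DESeq2, the adjusted p lay above the threshold, at most 0.0775. Itgae kept its call in a fit of the 6 libraries alone and with the replicate number as a block. The lowest edgeR adjusted p among the alternative fits was 4.24e-07. The log2 fold change of Itgae was 0.61 to 0.66 across these fits, and with a change beyond 1.5-fold required Itgae was not called. Osgin1, an oxidative stress response gene (2.76 ± 0.13), Xcl1, a chemokine that attracts dendritic cells (1.56 ± 0.31), and Cd244, a receptor of the SLAM family (2.45 ± 0.30), also rose. Icos, a costimulatory receptor (-1.49 ± 0.06), and the adhesion receptor gene Adgrg1 (-0.93 ± 0.15) were the lowest members averaging 5 CPM or more. The residency regulators Zfp683 (Hobit) and Prdm1 (Blimp1) were not called. Zfp683 had 1.16, 1.35 and 0.993 CPM in TGFβ + RA and 1.72, 1.64 and 1.72 CPM in TGFβ (-0.53 ± 0.21, edgeR adjusted p = 0.0538). Prdm1 had 35.8, 33.7 and 34.6 CPM in TGFβ + RA, against 43.7, 39.3 and 39.2 CPM in TGFβ (-0.23 ± 0.11, edgeR adjusted p = 0.0974). In a fit of the 6 libraries alone, and in one with the replicate number as a block, Zfp683, Prdm1 and the memory factor gene Tcf7 (-0.52 ± 0.21 in the fit of all 12) were called lower. Without the filter on low counts Tcf7 was called lower as well. In fits that left out 1 library, Zfp683 was called lower without TGFβ + RA replicate 2, RA replicate 3 or IL-2 + IL-15 replicate 1 or 3. Prdm1 was called lower without RA replicate 1 or 3, and Tcf7 without any RA replicate or IL-2 + IL-15 replicate 1.

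**Figure D2:**
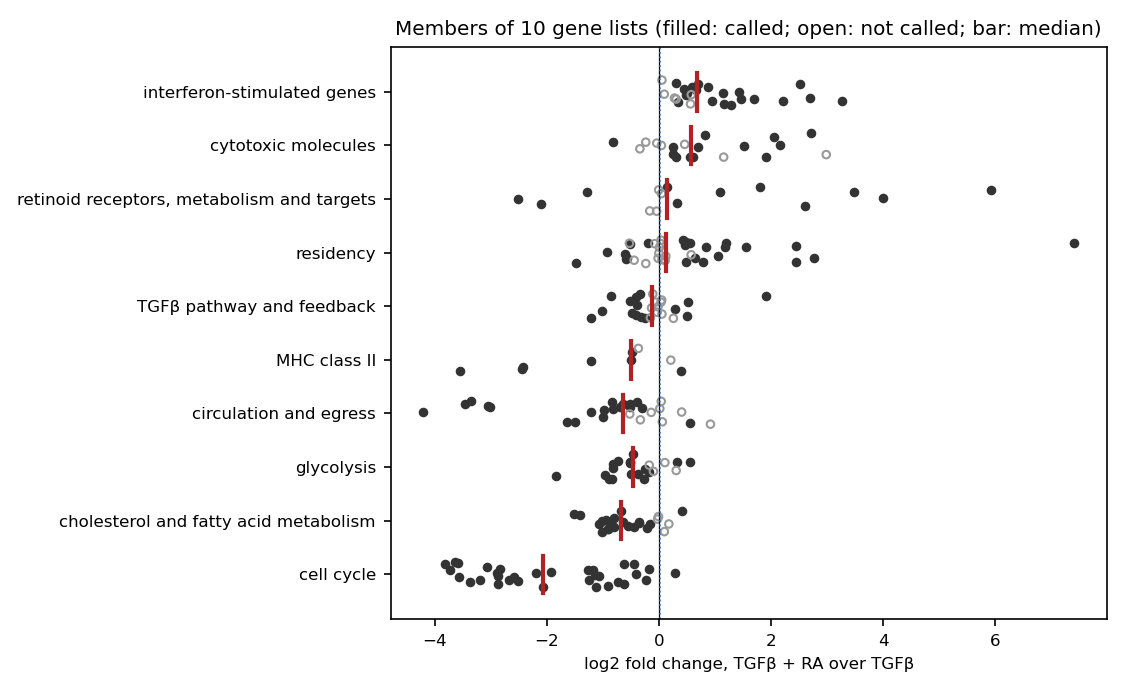
Log2 fold changes of TGFβ + RA over TGFβ for the tested members of 10 gene lists. Filled points are genes called at an adjusted p under 0.05, open points genes not called, red bars the medians and the dotted line the median of all genes tested (0.01); cell cycle members lie lowest (median -2.07) and interferon-stimulated genes are all above 0 (median 0.68).

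Among integrins and adhesion genes, 8 of 24 tested were called higher and 8 lower. Epcam, an epithelial adhesion gene, was at 10.4, 10.1 and 10.2 CPM in TGFβ + RA and 1.34, 2.06 and 1.96 CPM in TGFβ. Itgax, the αX chain, was higher by 1.74 ± 0.23. Itgal, the αL chain of LFA-1, had 356, 375 and 420 CPM in TGFβ + RA, against 939, 932 and 967 CPM in TGFβ, and Cd44, the hyaluronan receptor of activated cells, was lower by -1.80 ± 0.08. Itgb5 (-2.64 ± 0.24) and Alcam (-2.05 ± 0.10) were the lowest members.

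Cytotoxic genes were mostly higher or not called: of 20 tested, 12 were called higher (60%), 1 lower, and the median log2 fold change was 0.58. Gzma, the tryptase granzyme A, had 2700, 2887 and 2817 CPM in TGFβ + RA libraries and 625, 561 and 694 CPM in TGFβ libraries (2.16 ± 0.31, edgeR adjusted p = 8.20e-05). Prf1, the pore-forming perforin, was at 39.7, 37.9 and 35.3 CPM in TGFβ + RA, against 5.17, 5.06 and 6.97 CPM in TGFβ (2.71 ± 0.33). The granzyme inhibitors Serpinb9 (1.51 ± 0.15) and Serpinb6b (2.05 ± 0.23), with which killer cells protect themselves, and the death ligand gene Fasl (0.70 ± 0.15) were higher too. Gzmb, granzyme B, was not called: it had 375, 581 and 475 CPM in TGFβ + RA and 664, 531 and 618 CPM in TGFβ, which overlap (-0.34 ± 0.23, edgeR adjusted p = 0.258). In a fit of the 6 libraries alone Gzmb was called lower (-0.35, edgeR adjusted p = 0.0379). The lysosomal protease gene Ctsd was the member called lower (-0.82 ± 0.09), and 34.4% of its exon bases are shared with another gene on its strand. With a change beyond 1.5-fold required, 5 members were called higher.

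Cytokine genes moved both ways: of 18 tested, 6 were called higher and 7 lower. The chemokine genes Ccl5, Ccl4 (1.95 ± 0.43) and Xcl1 were among the 6, and the growth factor gene Csf2 stood at 4.55, 4.17 and 3.46 CPM in TGFβ + RA against 0.651, 0.781 and 0.721 CPM in TGFβ. Il10, the anti-inflammatory interleukin, had 0.318, 0.659 and 0.736 CPM in TGFβ + RA and 22.4, 24.4 and 27.7 CPM in TGFβ (-5.36 ± 0.24). Ifng, the interferon-γ gene, was low in both groups, at 1.16, 0.220 and 0.294 CPM in TGFβ + RA against 9.42, 7.24 and 7.49 CPM in TGFβ, and 25.9% of its exon bases are shared with another gene on its strand. Lta, the lymphotoxin gene, was lower by -1.23 ± 0.14. Of 25 tested cytokine receptor genes, 11 fell and 7 rose. Il18r1, the interleukin-18 receptor chain, was at 40.7, 40.3 and 35.1 CPM in TGFβ + RA and 364, 373 and 358 CPM in TGFβ. Il6ra fell by 3.72 ± 0.25 on the log2 scale and Il2rb, the chain that IL-2 and IL-15 share, by 1.13 ± 0.12. Il4ra (0.80 ± 0.07) and Ifngr1 (0.70 ± 0.06) were the highest members.

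Receptors that restrain T cells also went both ways, with 6 of 15 tested called higher and 4 lower. Pdcd1 (PD-1) had 11.8, 8.03 and 8.20 CPM in TGFβ + RA and 54.2, 52.7 and 51.7 CPM in TGFβ (-2.53 ± 0.29), and Havcr2 (TIM-3) had 3.97, 2.76 and 3.68 CPM in TGFβ + RA, against 26.6, 21.2 and 22.6 CPM in TGFβ. Cd160, a receptor of resident and exhausted cells, was at 136, 176 and 148 CPM in TGFβ + RA against 50.4, 43.8 and 43.4 CPM in TGFβ. Of 16 costimulatory receptor genes tested, 5 fell and 4 rose, and Cd28, the classical costimulatory receptor gene, was lower by -1.52 ± 0.07. Tnfrsf8 (CD30) was at 0.741, 0.659 and 0.809 CPM in TGFβ + RA and 8.54, 7.20 and 7.93 CPM in TGFβ. Without TGFβ + RA replicate 3 or TGFβ replicate 1, 2 costimulatory members were called higher in place of 4. Of 20 tested NK receptor genes, 6 were called lower and 3 higher. The inhibitory lectin receptor gene Klrc1 (NKG2A) was at 51.1, 54.2 and 41.3 CPM in TGFβ + RA, against 179, 169 and 153 CPM in TGFβ. Its relatives Klrc3 (-1.12) and Klrk1 (-0.86 ± 0.12) were lower as well, although reads of Klrc genes may be split between similar copies. Without TGFβ + RA replicate 2 or TGFβ replicate 3, 1 NK receptor gene was called higher in place of 3.

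Among 14 tested genes of purinergic signalling and its ectoenzymes, 5 were called higher and 4 lower. The ectoenzyme gene Art2b, whose product modifies P2RX7 in the mouse, was at 207, 232 and 238 CPM in TGFβ + RA and 53.5, 56.5 and 58.3 CPM in TGFβ. Cd38, an NAD-consuming enzyme gene, was higher by 0.91 ± 0.11 and Nt5e (CD73), which makes adenosine, by 0.48 ± 0.07. The members called lower were P2ry14, a receptor for UDP-sugars (-2.33 ± 0.26), the ATP release channel gene Panx1 (-0.31 ± 0.05), the adenosine receptor gene Adora2a (-0.31 ± 0.08) and the ectoenzyme gene Enpp1 (-0.31 ± 0.10). The call of Enpp1 was lost without TGFβ + RA replicate 2 or 3 or TGFβ replicate 1 or 3 (edgeR adjusted p at most 0.0879).

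Of 40 tested transcription factors of effector and memory cells, 11 were called higher and 15 lower. Maf had 31.1, 32.9 and 31.9 CPM in TGFβ + RA and 4.90, 5.14 and 6.77 CPM in TGFβ (2.51 ± 0.19). Irf4, which is induced by antigen receptor signals, was at 60.3, 58.6 and 56.8 CPM in TGFβ + RA, against 233, 238 and 234 CPM in TGFβ (edgeR adjusted p = 1.45e-12). Batf3 was lower by -3.47 ± 0.18, and Id2 by -0.83 ± 0.14. Tox (1.68 ± 0.18), Bcl6 (1.07 ± 0.06), Runx1 (1.20 ± 0.13) and the effector factor Tbx21 (0.49 ± 0.13) were higher. Runx3, which sustains Cd8 and residency genes, was lower by -0.20 ± 0.07, a call that was lost without any 1 of 5 of the 6 libraries (edgeR adjusted p at most 0.115). Eomes was not called, with 21.0, 31.8 and 34.5 CPM in TGFβ + RA and 40.1, 31.0 and 39.8 CPM in TGFβ.

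Foxp3 (chrX:7573644-7595245), the master regulator of regulatory T cells, was detected in both groups, at 236, 240 and 167 CPM in TGFβ + RA and 52.8, 57.2 and 53.1 CPM in TGFβ (1.98 ± 0.12, edgeR adjusted p = 2.56e-08). Of its exon bases, 18.6% are shared with another gene on the same strand and 18.7% with genes on the other strand. Of 14 regulatory T cell genes tested, Foxp3 included, 4 were called higher and 5 lower. Gpr83 and Ebi3 were higher (1.72 and 0.93), and Il10, Nrp1 (-2.02 ± 0.18), Capg (-1.10 ± 0.12) and Ikzf2 (-0.51 ± 0.13) were lower, while Ctla4 had a log2 fold change of 0.01. Cd4 (0.22 ± 0.44) and Zbtb7b (-0.18), the defining genes of CD4 T cells, were not called. The summed level of the 5 listed CD4 T cell markers, which include Foxp3 itself, was 221 to 310 CPM in TGFβ + RA and 104 to 109 CPM in TGFβ.

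Dtx1, a ubiquitin ligase gene of the Notch pathway, had 52.6, 90.9 and 78.8 CPM in TGFβ + RA and 10.7, 11.9 and 11.1 CPM in TGFβ (2.73 ± 0.21). It lies 18405 bp from Oas2, an antiviral gene described below. Notch3 was also higher (1.74), whereas Notch1 (-0.58 ± 0.07) and Rbpj, the DNA-binding effector of Notch (-0.86 ± 0.07), were lower. Of 7 tested aryl hydrocarbon receptor genes, 4 were lower and 1 higher, among them Ahr itself (-0.57 ± 0.14), its repressor Ahrr (-1.02 ± 0.18) and Gpr15. Of 9 MHC class II genes, which present antigen to CD4 T cells, 6 were lower and 1 higher. Cd74, the invariant chain, had 4.02, 8.56 and 11.5 CPM in TGFβ + RA, against 87.2, 99.0 and 105 CPM in TGFβ (-3.55 ± 0.27). H2-Eb1 fell by 2.44 ± 0.17 and H2-Aa by 2.42 ± 0.26 on the log2 scale, while Ciita, the class II activator, was not called (-0.37 ± 0.22). The member called higher was H2-DMa (0.40 ± 0.13), whose call was lost without TGFβ + RA replicate 3, TGFβ replicate 1 or TGFβ replicate 2.

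Most listed genes of the antiviral interferon response were higher. Of 26 interferon-stimulated genes tested, 20 were called higher (76.9%) and 0 lower in edgeR, and the median log2 fold change was 0.68. DESeq2 called 21 higher and 0 lower. Ifitm1 (-5.62), Ifitm2 (-3.44) and Ifitm3 (-3.97), interferon-induced membrane protein genes that are not on the list and were chosen after their values were seen, fell; 40.9% of the exon bases of Ifitm2 are shared with another gene. Oas2, which senses double-stranded RNA, had 6.93, 30.2 and 21.4 CPM in TGFβ + RA and 2.57, 1.89 and 1.68 CPM in TGFβ (3.27 ± 0.45, edgeR adjusted p = 5.38e-05). Isg15, a ubiquitin-like modifier, had 13.4, 26.4 and 21.9 CPM in TGFβ + RA, against 7.54, 6.42 and 5.17 CPM in TGFβ. Ifit1, which binds foreign RNA caps, was higher by 1.29 ± 0.18. In these 3 genes TGFβ + RA replicate 1 was the lowest of its group. Without that replicate 23 members were called higher, and without replicate 2 or replicate 3 the number was 19. Irf9, a transducer of the pathway, was not called (0.05 ± 0.06). With a change beyond 1.5-fold required, 10 members were called higher. The interferon-stimulated response element, searched on both strands as GAAA, then any NN, then GAAACT or GAAAGT, was found in 7 of 18 list members with an entry among RefSeq promoters of GRCm38.p6 (38.9%), against 0.562% of 27025 promoters of the same length, and 0.750% of those of tested genes. Of these 7, Ddx58, Oas3, Oas1a, Bst2 and Ifit1 were called higher, while Rsad2 and Ifit3 were not called. The share of the list describes its members and not the genes that RA raised. Among promoters of all genes called at least 2-fold, the motif was in 5 of 266 of those higher (1.88%) and 5 of 840 of those lower (0.595%). The same letters occur in the promoters of the cytotoxic genes Gzma, Serpinb9 and Lamp1, and of Eomes. The sequences below are shown because they hold the motif beside genes that rose, Ifit1 (chr19:34640639-34640938, plus strand), Oas1a (chr5:120907476-120907775, minus strand) and Gzma (chr13:113100932-113101231, minus strand), each of 300 bases around the gene start. Capitals mark the motif on either strand.
Ifit1: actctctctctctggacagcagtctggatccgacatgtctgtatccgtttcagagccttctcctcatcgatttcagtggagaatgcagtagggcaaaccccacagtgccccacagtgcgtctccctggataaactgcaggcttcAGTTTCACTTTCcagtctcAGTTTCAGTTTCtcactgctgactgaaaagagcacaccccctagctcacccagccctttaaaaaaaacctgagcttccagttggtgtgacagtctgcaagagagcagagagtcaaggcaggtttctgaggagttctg
Oas1a: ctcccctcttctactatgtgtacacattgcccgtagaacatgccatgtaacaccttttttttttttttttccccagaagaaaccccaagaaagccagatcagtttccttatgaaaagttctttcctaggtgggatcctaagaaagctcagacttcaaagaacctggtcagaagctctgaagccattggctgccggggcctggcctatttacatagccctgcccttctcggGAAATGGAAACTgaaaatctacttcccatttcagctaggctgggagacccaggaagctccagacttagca
Gzma: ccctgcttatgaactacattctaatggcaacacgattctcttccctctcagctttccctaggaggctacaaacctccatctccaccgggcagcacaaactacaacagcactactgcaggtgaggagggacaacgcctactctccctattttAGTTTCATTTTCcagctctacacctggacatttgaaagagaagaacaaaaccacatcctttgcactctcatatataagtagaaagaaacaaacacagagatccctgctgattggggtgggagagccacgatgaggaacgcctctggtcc
A match is a description of the letters and not a measured binding site. Direct repeats bound by RA receptors, searched on both strands as AGGTCA or AGTTCA followed after NNNNN or NN by either of them again, were in 0 of the 266 promoters available for genes called at least 2-fold higher, and in 13 and 12 of all 27025 promoters for the longer and the shorter spacing. Of 840 promoters of genes called at least 2-fold lower, 0 held the longer form and 1 the shorter. Matches were so rare among all promoters that a count of 0 in 266 cannot set these genes apart from the rest. Of 19 retinoid list members with an entry, 1 held the longer form.

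Cell cycle genes were lower almost throughout. Of 33 tested, 32 were called lower (97.0%) and 1 higher, with a median log2 fold change of -2.07, and 25 were lower with a change beyond 1.5-fold required. Mki67, the proliferation marker Ki-67, had 38.7, 55.6 and 39.9 CPM in TGFβ + RA libraries and 392 to 434 CPM in TGFβ libraries (-3.20 ± 0.14). Ccna2, cyclin A2, had 4.02, 5.71 and 3.42 CPM in TGFβ + RA, against 59.5, 61.8 and 66.4 CPM in TGFβ (-3.81 ± 0.24, edgeR adjusted p = 2.38e-08). The replication licensing factor Cdc6 was at 1.48, 1.41 and 1.25 CPM in TGFβ + RA and 19.3, 17.7 and 17.9 CPM in TGFβ. Genes of mitosis, Ccnb2 (-3.64), Birc5 (-3.56 ± 0.22) and Cdc20 (-2.84 ± 0.13), and the mitotic transcription factor Foxm1 (-2.90 ± 0.13) had larger decreases than the replicative helicase subunits Mcm2 to Mcm7, which had log2 fold changes of -1.18 to -0.18. Cdk2, a kinase of S phase entry, was the member called higher (0.28 ± 0.07). Of 26 list members with a RefSeq promoter, 11 held the cell cycle homology region, searched as TTTGAA or TTCGAA on both strands (42.3%), against 21.7% of all promoters, and 20 held CCAAT (76.9%), against 41.1%. Among promoters of tested genes the shares were 16.5% and 43%. Among those of all genes called at least 2-fold lower they were 24.6% and 48.1%. The promoters of Ccnb2 (chr9:70421505-70421804, minus strand) and Cdc20 (chr4:118437294-118437593, minus strand) are shown because they hold both motifs, which do not overlap there and are in capitals.
Ccnb2: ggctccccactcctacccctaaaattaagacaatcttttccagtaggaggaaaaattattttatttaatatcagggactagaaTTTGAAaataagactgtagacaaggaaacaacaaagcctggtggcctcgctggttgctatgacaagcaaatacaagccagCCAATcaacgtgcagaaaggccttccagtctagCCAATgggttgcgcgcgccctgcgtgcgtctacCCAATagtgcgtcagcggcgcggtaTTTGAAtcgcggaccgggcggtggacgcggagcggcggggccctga
Cdc20: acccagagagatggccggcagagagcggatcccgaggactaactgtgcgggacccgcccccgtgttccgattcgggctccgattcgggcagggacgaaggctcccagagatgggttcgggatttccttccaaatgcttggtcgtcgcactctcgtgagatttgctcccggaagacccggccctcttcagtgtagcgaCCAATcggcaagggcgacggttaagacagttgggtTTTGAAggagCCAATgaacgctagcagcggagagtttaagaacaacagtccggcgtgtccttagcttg
In Ccnb2 the window holds TTTGAA 2 times and CCAAT 3 times, and in Cdc20 it holds TTTGAA 1 time and CCAAT 2 times.

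**Figure D3:**
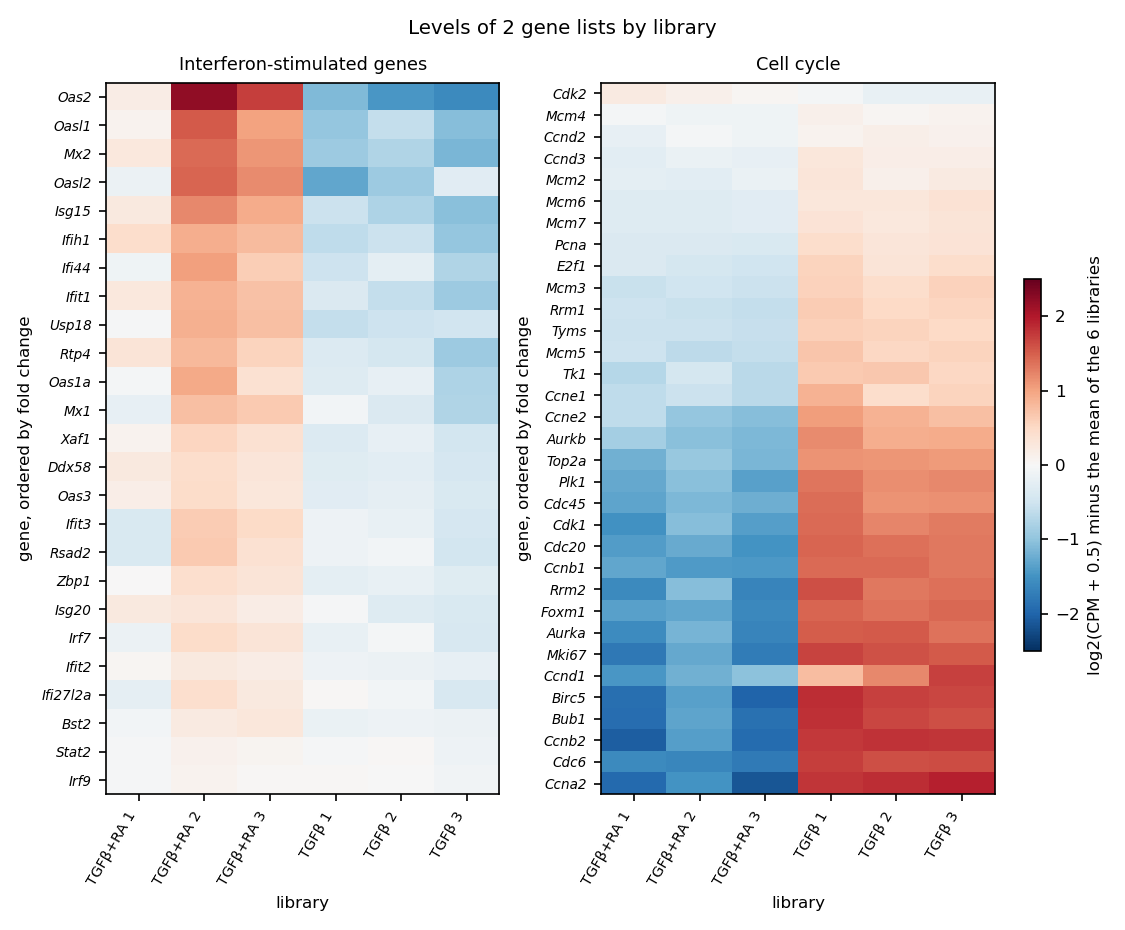
Heat maps of 25 of the 26 tested interferon-stimulated genes (left) and the 33 tested cell cycle genes (right) in the 3 TGFβ + RA and 3 TGFβ libraries. Colour is log2(CPM + 0.5) minus the gene's mean over the 6 libraries; interferon genes are paler in TGFβ + RA replicate 1 than in replicates 2 and 3 (Oas2 6.93 against 30.2 and 21.4 CPM), while cell cycle genes below the top rows are blue in all 3 TGFβ + RA libraries and red in all 3 TGFβ libraries (Mki67 38.7 to 55.6 against 392 to 434 CPM).

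Metabolic genes were lower by smaller amounts. Of 25 genes of cholesterol and fatty acid metabolism tested, 20 were called lower (80%) and 1 higher, with a median log2 fold change of -0.68. Cyp51, an enzyme of sterol synthesis, had 22.5, 24.9 and 22.7 CPM in TGFβ + RA and 69.1, 65.7 and 65.9 CPM in TGFβ, without overlap (-1.51 ± 0.08). The member called higher was Abcg1, which exports cholesterol (0.41 ± 0.06). Of 21 genes of glycolysis tested, 15 were lower (71.4%) and 2 higher, with a median of -0.46. Hk2, hexokinase 2, had 10.6, 10.4 and 11.4 CPM in TGFβ + RA, against 21.3, 21.8 and 19.8 CPM in TGFβ, and Aldoc was lower by -1.84 ± 0.06. The glucose transporter gene Slc2a3 rose by 0.55 ± 0.06. With a change beyond 1.5-fold required, 11 genes of the lipid list and 6 of the glycolysis list were called lower. Ribosomal protein genes took 4.97% ± 0.354 of counts in TGFβ + RA and 5.62% ± 0.133 in TGFβ (SD, n = 3 each; exact two-sided permutation p = 0.1, the smallest that 3 against 3 can give).

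Of 25 components of TGFβ signalling tested, 11 were called lower and 4 higher, with a median of -0.13, and with a change beyond 1.5-fold required 0 were lower and 1 higher by edgeR's glmTreat. The highest was Tgfb3, a TGFβ ligand, at 20.2, 29.5 and 21.6 CPM in TGFβ + RA against 8.62, 5.06 and 5.33 CPM in TGFβ (1.91 ± 0.24). Smad3, which carries the signal, was higher by 0.49 ± 0.06, and the coreceptor gene Tgfbr3 was lower by -1.02 ± 0.21. The SMAD-induced feedback genes Smad7 (-0.11 ± 0.06), Pmepa1 (-0.06 ± 0.06) and Skil (0.05 ± 0.06) were not called, and Skil had 329, 307 and 297 CPM in TGFβ + RA and 311, 300.4 and 286 CPM in TGFβ, which overlap.

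Of 15 BCL2 family genes tested, 4 were called higher and 1 lower. The death-promoting Bcl2l11 (BIM) had 172, 182 and 154 CPM in TGFβ + RA and 87.3, 85.6 and 81.7 CPM in TGFβ, the protective Bcl2 was higher by 0.41 ± 0.07, and Bcl2l1 was lower by -0.73 ± 0.12. The count called lower moved between 1 and 3 with the library left out: it was 3 without TGFβ + RA replicate 3, RA replicate 3 or IL-2 + IL-15 replicate 1, and 2 without TGFβ replicate 2, RA replicate 1 or IL-2 + IL-15 replicate 2 or 3. Of 19 immediate-early genes tested, 9 fell and 3 rose, with Atf3 lower by -2.79 ± 0.20, Nr4a1 by -1.46 ± 0.23 and Jun higher by 1.12 ± 0.07.

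Of 18 tested CD8 T cell identity genes, 8 were called higher and 4 lower, with a median of 0.11. Cd8a had 3044, 3145 and 3020 CPM in TGFβ + RA, against 2483, 2415 and 2457 CPM in TGFβ (0.32 ± 0.11), and Cd8b1 was lower by -0.40 ± 0.07. The gamma delta T cell markers summed to 643 to 731 CPM in TGFβ + RA and 456 to 495 CPM in TGFβ, mostly from Tcrg-C2 (0.59) and Tcrg-C4 (0.46), both called higher. The call of Tcrg-C4 was lost without any 1 of the 6 libraries (edgeR adjusted p at most 0.120) and by DESeq2's Wald test. In a fit of the 6 libraries alone Tcrg-C4 was called higher. The delta chain gene Trdc had 241, 756 and 370 counts in TGFβ + RA and 606, 675 and 615 counts in TGFβ (-0.57, not called), and Blk had 1, 0 and 2 counts in TGFβ + RA and 12, 13 and 21 counts in TGFβ. NK cell markers summed to 28.1 to 43.0 CPM in TGFβ + RA and 35.4 to 46.0 CPM in TGFβ. B cell markers summed to 1928 to 2448 CPM in TGFβ + RA and 1447 to 1477 CPM in TGFβ, nearly all from Ighm (0.60 ± 0.14), while Ms4a1 had at most 1 count in any of the 6 libraries. The sum hides members that fell: of 6 B cell markers tested, 2 were called higher and 3 lower. The light chain gene Igkc had 0 counts in TGFβ + RA libraries and 155 in TGFβ libraries together. Macrophage and dendritic cell markers summed to 62.2 to 73.2 CPM in TGFβ + RA and 37.0 to 42.0 CPM in TGFβ, mostly Itgax, with at most 6 counts of Csf1r. Of the 3 tested, 1 was called higher (Itgax) and 2 lower. Zbtb46 had 19, 41 and 34 counts in TGFβ + RA and 236, 278 and 255 in TGFβ. Itgam had 58, 134 and 128 counts in TGFβ + RA and 305, 252 and 178 in TGFβ. Erythroid and stromal markers summed to 57.4 to 66.8 CPM in TGFβ + RA and 66.3 to 75.3 CPM in TGFβ, and Hbb-bs and Col3a1 were at 0 in all 6. The part of these other cell types in the results was not tested.

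The effect of RA depended on TGFβ for many genes. RA over IL-2 + IL-15, a contrast that shares no library with the one above, called 3740 genes (26.7%). In all, 2538 genes were called in both contrasts, 2358 of them in the same direction (92.9%) and 180 in opposite directions. The difference between both effects, tested in the same edgeR fit, was called for 2702 genes (19.3%), 974 higher (6.95%) and 1728 lower (12.3%). Without RA replicate 3 the number was 4158, and with a difference beyond 1.5-fold required it was 586. Among the 6029 genes called in TGFβ cultures, 2236 had a called difference. Of these, 1214 had the same sign and a larger effect with TGFβ, 86 the same sign and a smaller effect, and 936 the opposite sign. The signs are those of the estimates, whether or not the effect without TGFβ was called. Most of the 936 are therefore not called reversals, since only 180 genes were called in opposite directions. In the cell cycle list 27 of 33 tested genes had a called difference (81.8%), in the interferon list 22 of 26 (84.6%), in the lipid list 20 of 25 (80%) and in the retinoid list 6 of 15 (40%).

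For Ccl5, Foxp3, Dtx1 and Cd69 the log2 effect of RA was higher with TGFβ than without it. Without TGFβ, Ccl5 was called higher (1.57), and Foxp3 (-0.91), Dtx1 (-0.05) and Cd69 (-0.04) were not called. Foxp3 averaged 214 ± 40.9 CPM in TGFβ + RA and 54.3 ± 2.48 CPM in TGFβ, with means of 0.468 CPM in RA and 0.914 CPM in IL-2 + IL-15 (SD, n = 3 each). The difference of its log2 effects was 2.89 ± 0.46 (edgeR adjusted p = 0.000675). Ccl5 averaged 1143 ± 351 CPM in TGFβ + RA and 41.0 ± 5.52 CPM in TGFβ, against 920 ± 226 CPM in RA and 311 ± 51.2 CPM in IL-2 + IL-15, a difference of 3.23 ± 0.30. For Ccl5 the TGFβ libraries were the lowest of the 4 groups, without overlap with any other. Cd69 averaged 52.3 ± 1.70 CPM in TGFβ + RA and 22.7 ± 2.44 CPM in TGFβ, and had 26.7 ± 1.80 CPM in RA and 27.5 ± 2.21 CPM in IL-2 + IL-15. Mki67 was at 44.7 ± 9.44 CPM in TGFβ + RA, 412 ± 21.4 CPM in TGFβ, 324 ± 58.7 CPM in RA and 596 ± 25.9 CPM in IL-2 + IL-15, so the RA effect was -3.20 with TGFβ and -0.88 without it.

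In the other direction, Ace averaged 0.165 ± 0.0212 CPM in TGFβ + RA and 102 ± 12.7 CPM in TGFβ, while RA and IL-2 + IL-15 libraries had 0.201 ± 0.0661 and 0.0921 ± 0.0448 CPM. The difference of its effects was -10.25 ± 0.75 (edgeR adjusted p = 2.06e-06). Gpr15 was also highest in TGFβ, but it was called lower with RA without TGFβ too (log2 effect -2.18), with 0.740 ± 0.0768 CPM in TGFβ + RA and 122 ± 28.4 CPM in TGFβ, against 0.345 ± 0.0166 CPM in RA and 1.57 ± 0.215 CPM in IL-2 + IL-15. Gja5, a gap junction gene, was called in opposite directions, being lower with TGFβ (-1.15 ± 0.40; 89.0 ± 8.12 CPM in TGFβ + RA and 198 ± 13.2 CPM in TGFβ) and higher without it (4.56; 39.1 ± 32.9 CPM in RA and 1.64 ± 0.774 CPM in IL-2 + IL-15). The call with TGFβ was lost without any 1 of the 6 libraries (edgeR adjusted p at most 0.0873) and by DESeq2's Wald test (adjusted p = 0.110), while the difference kept its call. In a fit of the 6 libraries alone Gja5 was called lower. Itsn1, an endocytic scaffold gene, and Agap1, a membrane traffic regulator gene, also had opposite effects, of -4.40 ± 0.32 and -3.42 ± 0.19 with TGFβ. Without TGFβ their effects were smaller, 0.73 ± 0.24 and 1.46 ± 0.44. Agap1 was then near the floor, with means of 0.670 CPM in RA and 0.251 CPM in IL-2 + IL-15. The MHC class II gene H2-Eb1 was lower with TGFβ and higher without it (1.03). Zfp683 averaged 1.17 ± 0.178 CPM in TGFβ + RA and 1.70 ± 0.0448 CPM in TGFβ, and 27.3 ± 2.07 CPM in RA and 4.59 ± 1.01 CPM in IL-2 + IL-15, a difference of -3.09 ± 0.25. Stra6, a retinol transporter gene, had 0.0807 ± 0.0224 CPM in TGFβ + RA and 0.0800 ± 0.0418 CPM in TGFβ, and 1.69 ± 0.430 CPM in RA with 0 counts in IL-2 + IL-15.

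**Figure D4:**
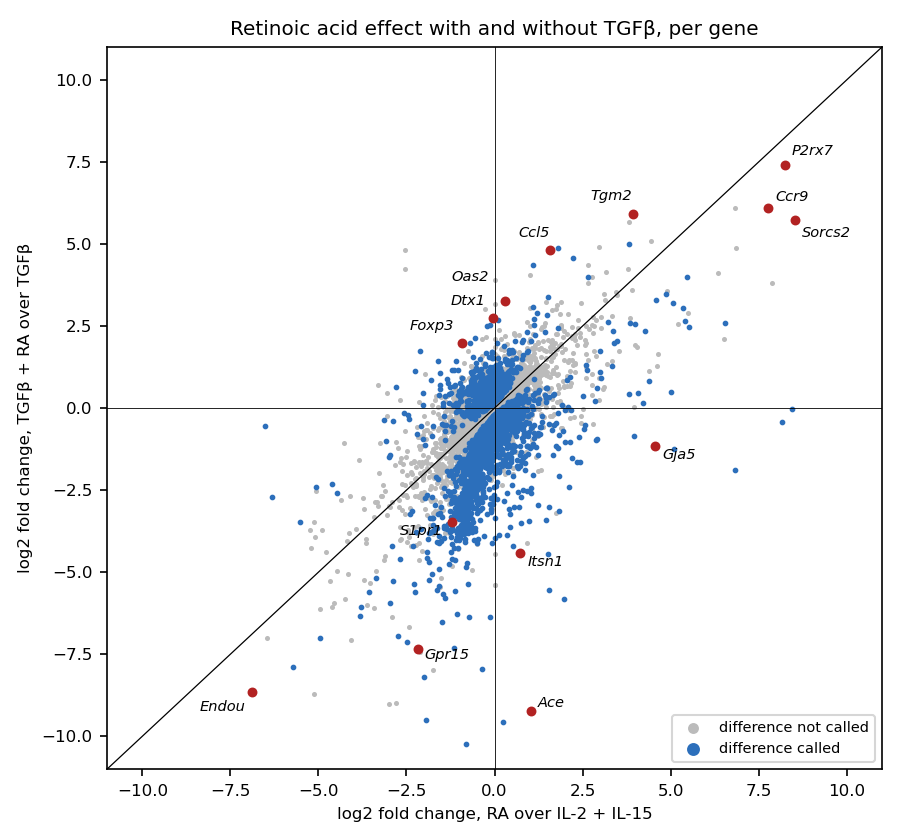
Log2 fold change of RA with TGFβ (TGFβ + RA over TGFβ, vertical) against that without TGFβ (RA over IL-2 + IL-15, horizontal) for the 14009 tested genes. Blue points are the 2702 genes whose effects differ at an adjusted p under 0.05, the diagonal marks equal effects and red points are named genes; Ccr9 and P2rx7 are high on both axes, and Ace is low on the vertical axis only.

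**Figure D5:**
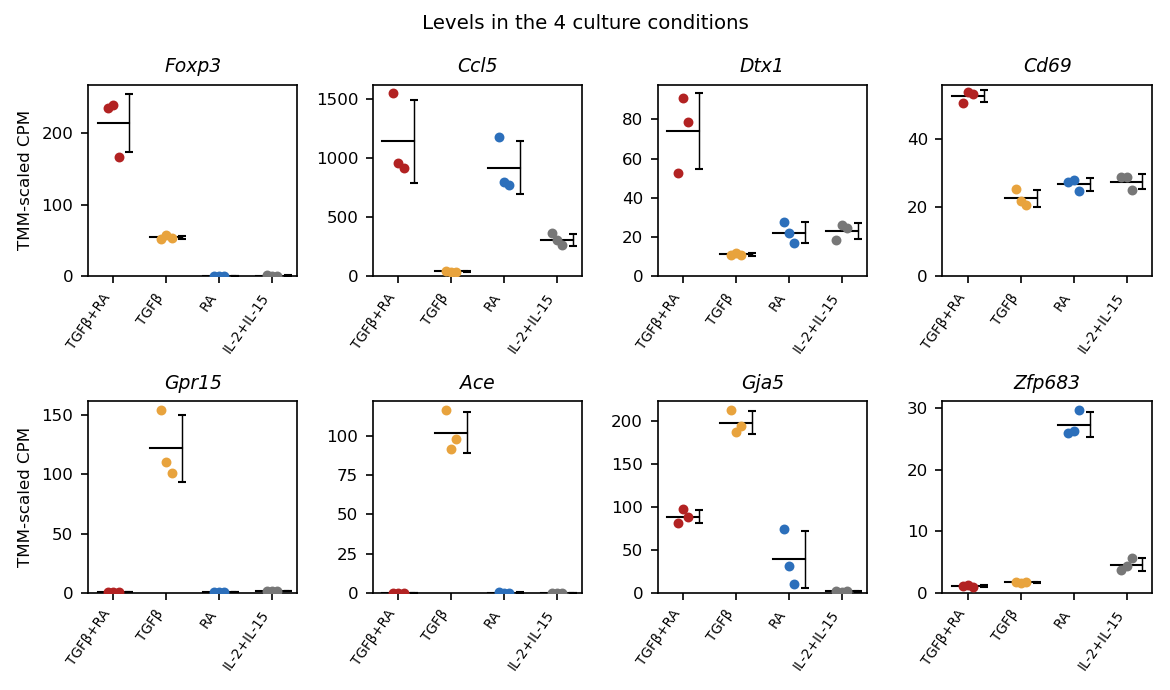
TMM-scaled CPM of 8 genes in the 4 culture conditions. Points are libraries, black lines means and bars to their right SD (n = 3 each); Foxp3 is highest in TGFβ + RA (214 CPM), Gpr15, Ace and Gja5 are highest in TGFβ (122, 102 and 198 CPM), and Zfp683 is highest in RA (27.3 CPM).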

How the data were processed

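Per the labels' protocols, RNA of cultured CD8 T cells was isolated with the RNeasy Micro kit and made into Illumina TruSeq stranded mRNA libraries. Per the submitters' processing notes, STAR and featureCounts were used with GRCm38. Tool versions, annotation release and strand setting are not given in the sources used here. Whole-number counts per gene were deposited by the authors for each sample, not normalized. A combined table held the same values and was not used.

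Genes were filtered with filterByExpr (minimum count 10), scaled by TMM and fitted with edgeR 4.0.16 in R 4.3.3 (quasi-likelihood, 12 libraries, 4 group means, 8 residual degrees of freedom), with calls where the Benjamini-Hochberg adjusted p lay under 0.05, and checked on simulated counts. The contrasts were TGFβ + RA minus TGFβ, RA minus IL-2 + IL-15, and their difference. SE is the absolute log2 value divided by the root of the F statistic. It may be too small for genes with few counts in 1 group. Replicates differed by more than counting noise (chi-square per degree of freedom 3.93 to 6.49), so each library is 1 replicate. Intervals and floors cover counting error only. GENCODE M21 held 98% of the gene identifiers and gave coordinates.

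Members and lists were chosen with earlier results of these data known. Named genes were 20 panel genes, the 10 highest and 10 lowest fold changes (called, mean of at least 5 CPM, no overlap of groups, no predicted gene models), up to 2 highest and 2 lowest of each list, and the 5 highest and 5 lowest differences (among genes with the difference called). Genes named beside these were chosen after their values were seen. Alternatives were DESeq2 1.42.0 (size factors, Wald test), no filter, a replicate block, the 6 libraries alone, glmTreat at 1.5-fold, and leaving out each library. Some genes are not reported here.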

Additional observations from a re-analysis of the deposited data

Results flagged for a closer look

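Of the 44 genes in the panel and at the extremes of the contrast or of the difference, 31 had an effect of RA with TGFβ that differed from its effect without TGFβ in edgeR's quasi-likelihood test of the difference itself. The 5 highest and 5 lowest differences were chosen among genes with a called difference. The 10 highest and 10 lowest fold changes were chosen on the effect with TGFβ, which enters the difference. The 31 of 44 therefore follows in part from the choice, and over all tested genes the share was 19.3%. Values are the log2 effect of RA with TGFβ minus that without it. The difference was positive for Cd69 (1.24), Ccr7 (0.86), Tgm2 (1.99), Grtp1 (1.20), Ccl5 (3.23), Heatr9 (3.26), Dkk3 (1.35), Foxp3 (2.89), Dtx1 (2.78) and Oas2 (2.98). It was negative for Ccr9 (-1.66), Itga4 (-1.26), Itgb7 (-0.61), Cxcr6 (-0.70), Zfp683 (-3.09), Prdm1 (-1.05), S1pr1 (-2.27), Klf2 (-1.60), Sorcs2 (-2.81), Dhrs3 (-1.46), Ace (-10.25), Stac2 (-2.16), Gpr15 (-5.16), Fut7 (-2.05), Rgs8 (-4.20), Mpp2 (-2.52), Fam129b (-2.28), Slc15a1 (-4.37), Gja5 (-5.71), Itsn1 (-5.14) and Agap1 (-4.88). Positive values include genes that rose more with TGFβ, such as Ccl5, and Ccr7, which fell less with it. Negative values include genes that fell more with TGFβ, such as S1pr1, genes that rose less, such as Ccr9, and Zfp683 and Prdm1, which rose without TGFβ and were not called with it. The calls of Tgm2, Grtp1, Dhrs3 and Dkk3 were lost in some fits that left out 1 library, with adjusted p-values of at most 0.103: Tgm2 without TGFβ replicate 1 or 2 or IL-2 + IL-15 replicate 2, Grtp1 without TGFβ replicate 1 or IL-2 + IL-15 replicate 1 or 2, Dhrs3 with the replicate block or without TGFβ + RA replicate 1, TGFβ replicate 2 or 3, RA replicate 1, or IL-2 + IL-15 replicate 1 or 2, and Dkk3 when replicate 2 or 3 of IL-2 + IL-15 was left out.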

How the results depend on the processing

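The count of called genes was 6044 with DESeq2 size factors, 5864 without the filter, 5822 with the DESeq2 Wald test and 6757 in the 6 libraries alone, against 6029. Calls shared with these settings had the same sign in every case. With glmTreat at 1.5-fold the counts were 1546 genes called, 369 higher, 1177 lower and 586 for the difference. Leaving out each library in turn gave 5053 to 6606 called, 2246 to 3105 higher, 2784 to 3501 lower, 1573 to 1693 at least 2-fold, and 2040 to 4158 for the difference, the highest without RA replicate 3. Of 121 named genes called, 111 kept call and direction in every setting but glmTreat, in which 37 lost the call. Ifng is counted among the 111, but it had an adjusted p in only 16 of the 17 alternative settings other than glmTreat.

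Replicate numbers are shared by the groups, but the labels do not tie a number to an animal. Deviations from the group means correlated at 0.0978, 0.130 and 0.168 between same-numbered libraries of TGFβ + RA and TGFβ. These were not above 0.1 in every pair, so the numbers were not used as pairs. Each of these libraries correlated best with its own number, which is a hint from the data and not the design. Between same-numbered RA and IL-2 + IL-15 libraries, which enter the difference of effects, the correlations were 0.341, 0.130 and 0.271. With the replicate block 6324 genes were called, 3023 higher and 3301 lower, and 3072 for the difference. Depth limits genes of few counts, such as Stra6 and Cyp26b1.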

Other observations

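Members of the interferon-induced transmembrane protein family, which block virus entry and were not in the interferon list, went against that list. Ifitm1 had 7.15, 8.22 and 12.1 CPM in TGFβ + RA and 558, 386 and 420.0 CPM in TGFβ, a log2 fold change of -5.62 ± 0.58 (edgeR adjusted p = 3.51e-06). Ifitm2, 11233 bp away, was lower by -3.44 ± 0.51, with 40.9% of its exon bases shared with another gene on its strand, and Ifitm3, 39760 bp from Ifitm1, by -3.97 ± 0.46. Without TGFβ the RA effect on Ifitm1 was -2.26. These genes were chosen after their values were seen.

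Several genes of calcium-binding S100 proteins and galectins were lower in TGFβ + RA, while S100a1 (0.54) and Lgals8 (0.33) were called higher. Lgals3 had 11.8, 15.5 and 13.1 CPM in TGFβ + RA, against 246, 191 and 195 CPM in TGFβ, and Lgals1 had 53.3, 53.2 and 45.9 CPM in TGFβ + RA and 386, 303 and 334 CPM in TGFβ. S100a6 was lower by -2.27 ± 0.19, S100a10 by -0.57 ± 0.12 and S100a11 by -0.51 ± 0.11 on the log2 scale. Sema4a, a semaphorin gene, was at 4.13, 6.49 and 8.64 CPM in TGFβ + RA and 330.3, 309.6 and 321 CPM in TGFβ. The neighbouring phosphodiesterase genes Enpp4 and Enpp5, 9740 bp apart, were both higher, by 2.36 ± 0.07 and 2.63 ± 0.10. All of these were likewise chosen after their values were seen.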
